A study of Mus musculus with 5 samples.

Results

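Natural killer (NK) cells of 4T1 tumors were described here from the cells that passed a marker rule in 2 T cell libraries. Barcodes entered if 500 or more genes were seen and no more than 10% of their unique molecular identifiers (UMIs, the counted transcript molecules) were mitochondrial. NK cells were then selected on UMIs of at least 2 of the 6 genes Ncr1, Klrb1c, Klrb1f, Klre1, Eomes and Tyrobp, with no UMI of Cd3e, Cd8a, Cd8b1, C1qa or Csf1r and fewer than 3 of Lyz2. The rule found 152 NK cells among 6810 kept cells, 95 of 3560 in the library of doxorubicin (DOX) sensitive tumors and 57 of 3250 in the library of DOX resistant tumors.

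4T1 is a BALB/c mammary carcinoma line used as a model of triple-negative breast cancer, and the tumors grew in the mammary fat pad of female BALB/c mice that the labels give as 12 weeks old. Mice of both T cell libraries received DOX intravenously at 5 mg/kg, given 3 times with 3 days between doses, and tumors were called sensitive or resistant by whether their growth was held back. T cells were enriched with the Pan T Cell Isolation Kit II, a magnetic depletion of other immune cells, together with CD90.1 MicroBeads for the cancer cells, and T cells of several tumors were pooled into 1 library per group. The other 3 libraries held whole tumor, labelled control (saline), sensitive and resistant. For the resistant and the control whole-tumor library the source field names a sensitive tumor, so these libraries are called by their label. With 1 library per group, every difference below compares 2 libraries and cannot be checked on replicates. In pairs of values the sensitive library stands first. Brackets hold 95% intervals, which cover counting error only.

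NK cells are innate lymphocytes that kill stressed or transformed cells without a rearranged antigen receptor. Activating receptors such as NKp46 (Ncr1) and NKG2D (Klrk1) signal through adaptors such as DAP12 (Tyrobp) and the Fc receptor gamma chain (Fcer1g), while lectin-like receptors that recognise MHC class I hold the cell back. The killing itself uses perforin, which opens the target membrane, and granzymes, which are proteases released with it. Group 1 innate lymphoid cells (ILC1) share Ncr1 and Tbx21 with NK cells and differ by residency genes such as Itga1, Cxcr6 and Il7r. The depletion kit is known to carry an antibody to CD49b (Itga2), which most mouse NK cells bear, so the NK cells studied here are those the depletion left and their number does not measure their number in the tumor.

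Most cells of both libraries had UMIs of several NK marker genes outside the rule. The NK label is used here for cells that may include ILC1. Of 20 NK marker genes that the rule did not use, 18 had UMIs in each library, and their summed count per cell ranged from 4 to 569 UMIs (median 48) among sensitive cells and from 3 to 628 (median 55) among resistant ones. Fcer1g was found in 95 of 95 sensitive and 56 of 57 resistant NK cells. Nkg7, a granule membrane protein, was found in 85 and 51 cells, and Il2rb, the interleukin-2 and interleukin-15 receptor beta chain, in 84 and 49. Klrk1 was found in 77 and 45, Klrd1 (CD94) in 73 and 48, and the kinase Txk in 68 and 45. Others were seen in fewer cells, such as Gzma (18 and 18), Fcgr3 (16 and 19), Klri2 (16 and 11), Klra7 (3 and 10) and Serpinb9b (3 and 4). Not all of these genes are particular to NK cells, since Nkg7 and Klrd1 were higher in CD8 T cells and Fcer1g in macrophages. The mouse Ly49 receptor genes Klra4 and Klra8 had no UMI in any cell. These 2 genes were counted on a C57BL/6 reference, and the Ly49 gene cluster differs between mouse strains, so counts within it may not match the BALB/c genes.

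Itga2, the antigen of the depletion antibody, was close to absent, with 6 UMIs in 6 sensitive and 2 UMIs in 2 resistant NK cells. Itgam (CD11b), another depletion antigen, gave 9 UMIs in 6 cells and 2 UMIs in 2 cells. Itgax (CD11c), also targeted by the kit, was seen in 31 and 21 cells. In the remaining cells Itga2 was not detectable at this depth.

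Markers of ILC1 were present beside those of NK cells. All 7 listed genes had UMIs in both libraries, summing to 1148 and 459 UMIs (a median of 10 and 6 per cell). Itga1 (CD49a) was found in 31 and 24 cells. Eomes, the transcription factor that marks NK cells against ILC1, was found in 34 sensitive and 28 resistant cells. Eomes and Itga1 were found together in 14 of 95 (14.7% [8.30 to 23.5]) sensitive and 13 of 57 (22.8% [12.7 to 35.8]) resistant cells, and neither gene was found in 44 and 18. At a median of 4791 and 4850 UMIs per cell, a gene that is not seen may still be expressed, so NK cells and ILC1 were not separated.

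Genes of the T cell receptor complex outside the rule were low. Cd3d was found in 4 sensitive and 0 resistant cells, Cd3g in 3 and 5, Trac in 7 and 2, and Cd5 in none. The T cell receptor constant genes Trbc1 (48 and 22 cells) and Trbc2 (45 and 20 cells) were the exception, and both are known to be transcribed without rearrangement in innate lymphocytes. The costimulatory receptor gene Cd28 was found in 30 and 16 cells. Of the gamma-delta T cell list, Trdv4 was found in 29 and 16 cells, Trdc in 14 and 10 and Tcrg-C1 in 14 and 3, and Cd163l1, Blk and Sox13 had no UMI. Among ILC3 genes, 2 of 4 had a UMI in the sensitive library and none in the resistant one. ILC2 genes came to 38 and 29 UMIs, of which Gata3, which NK cells also express, gave 35 and 21.

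Some cells carried transcripts of other cell types. The dendritic cell list, led by MHC class II genes, summed to 2076 and 3942 UMIs, ranging from 0 to 832 and from 0 to 1068 per cell with a median of 1 in both. The 5 highest cells held 89.5% and 98.4% of the Cd74 UMIs. With a threshold of 10 summed UMIs of H2-Aa, H2-Ab1, H2-Eb1 and Cd74, 8 sensitive and 7 resistant cells stood apart, and Ncr1 was found in 4 of those 8 and 3 of those 7. Counting also cells with at least 10 collagen or decorin UMIs (2 and 1), with 2 or more mast cell or basophil genes (2 and 1), or with a Cd3d or Cd3g UMI (7 and 5), 18 of 95 sensitive and 14 of 57 resistant cells had transcripts of another type. The macrophage list summed to 350 and 227 UMIs (0 to 19 and 0 to 33 per cell), mostly of Ccr2 and Ly6c2, which NK cells express. Cd68 gave 6 and 26 of them and Adgre1 (F4/80) none. Neutrophil genes summed to 105 and 111 UMIs in 2 and 6 cells, of which Il1b gave 97 and 108. Of the B cell list Cd79a and Ms4a1 had no UMI, and Ighm gave 62 and 37 UMIs in 43 and 20 cells. Epithelial genes (Krt8, Krt18, Epcam) summed to 25 and 22 UMIs in 8 and 12 cells. Of the endothelial list Cdh5 had no UMI, and Pecam1, which lymphocytes also express, gave 63 and 46 UMIs. The part of these transcripts in the results was not tested, and values without these 32 cells are given for many of the genes below.

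**Figure D1:**
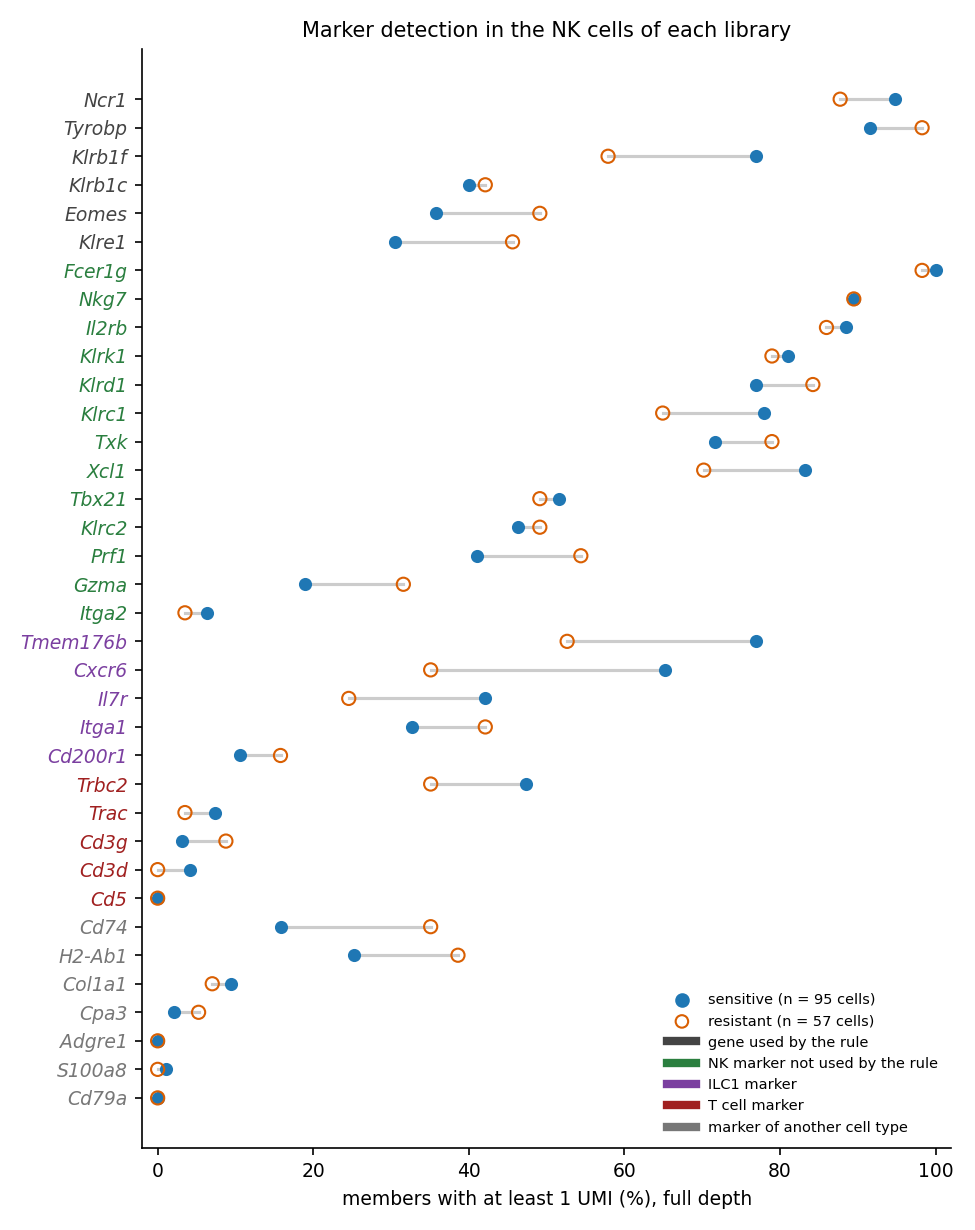
Share of NK cells with at least 1 UMI of each gene (x axis, percent, full depth) in the sensitive (filled, 95 cells) and resistant library (open, 57 cells), with gene names coloured by marker class. NK markers outside the rule such as Fcer1g and Nkg7 lie near the right edge in both libraries, Itga2 and the CD3 genes near 0, and Cxcr6 and Tmem176b are further right in the sensitive library.

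The windows upstream of 5 genes that set these cells apart are printed so that the sequence of the leading NK genes can be read beside their levels. Ncr1 and Klrb1f were used by the rule, Klrb1a was among the leading genes over CD8 T cells, Klrb1c encodes NK1.1 and Gzmc is the granzyme that differed most in UMIs between the libraries. Each window holds 250 bases before the start of the gene on its own strand (RefSeq, GRCm38.p6), and capitals mark the RUNX core TGTGGT or its reverse complement ACCACA. The T-box motif GGTGTGA was searched on both strands too and had no match in these windows.
Ncr1: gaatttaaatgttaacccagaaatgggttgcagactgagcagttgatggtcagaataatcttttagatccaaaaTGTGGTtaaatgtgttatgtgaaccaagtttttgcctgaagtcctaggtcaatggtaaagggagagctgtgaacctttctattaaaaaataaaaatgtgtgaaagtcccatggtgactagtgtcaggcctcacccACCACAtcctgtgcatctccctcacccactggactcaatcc
Klrb1f: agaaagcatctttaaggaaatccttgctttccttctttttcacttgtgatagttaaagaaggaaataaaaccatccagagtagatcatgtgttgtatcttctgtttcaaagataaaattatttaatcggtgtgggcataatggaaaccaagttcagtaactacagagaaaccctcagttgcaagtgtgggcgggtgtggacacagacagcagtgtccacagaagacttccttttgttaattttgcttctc
Klrb1c: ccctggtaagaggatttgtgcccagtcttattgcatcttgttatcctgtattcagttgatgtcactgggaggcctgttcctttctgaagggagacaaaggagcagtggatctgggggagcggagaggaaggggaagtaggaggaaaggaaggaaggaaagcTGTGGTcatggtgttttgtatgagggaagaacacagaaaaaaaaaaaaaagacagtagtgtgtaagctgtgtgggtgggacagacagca
Klrb1a: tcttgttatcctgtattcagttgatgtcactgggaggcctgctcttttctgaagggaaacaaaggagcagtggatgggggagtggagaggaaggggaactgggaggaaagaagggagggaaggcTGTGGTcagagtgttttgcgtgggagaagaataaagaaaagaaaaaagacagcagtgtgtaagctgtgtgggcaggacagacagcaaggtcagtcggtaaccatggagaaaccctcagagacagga
Gzmc: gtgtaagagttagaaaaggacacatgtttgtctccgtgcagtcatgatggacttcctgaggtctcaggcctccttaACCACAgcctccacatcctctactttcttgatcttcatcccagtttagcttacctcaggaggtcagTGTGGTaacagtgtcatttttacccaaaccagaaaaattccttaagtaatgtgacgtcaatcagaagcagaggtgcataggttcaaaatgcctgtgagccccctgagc
The windows lie at chr7:4337465-4337714 (plus strand), chr6:129045651-129045900 (plus), chr6:128788642-128788891 (minus), chr6:128622935-128623184 (minus) and chr14:56234658-56234907 (minus). For Klrb1a the RefSeq start lies inside the longer GENCODE M21 gene model given below, so its window overlaps that model. The RUNX core was found 2 times before Ncr1, 1 time each before Klrb1c and Klrb1a, 2 times before Gzmc and not before Klrb1f. Of the 6 genes of the rule, 5 had a window in the table, and 3 of the first windows of these 5 held the core, as did 4614 of all 32851 windows of this length (14.05%). The T-box motif was in 3.33% of all windows and in none of these 5. A match is a description of the letters and not a bound site.

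Across the cell types of the same libraries, the genes of the rule other than Tyrobp were highest in NK cells, which the rule itself imposes. Levels are given as CPM, in which the UMIs of a gene are divided by all UMIs of the same cells, so that groups of unequal depth can be set side by side. Ncr1 stood at 1183 and 740 CPM, against 13.8 and 5.52 CPM in CD8 T cells, 58.2 and 208 CPM in gamma-delta T cells and at most 0.561 CPM in macrophages. Tyrobp was no lower in macrophages (2529 and 2435 CPM) as in NK cells (1880 and 1757 CPM), so on its own it does not separate the 2 types. Among genes outside the rule, Txk stood at 274 and 247 CPM in NK cells against 31.6 and 34.3 CPM in CD8 T cells. Klrk1 did not set NK cells apart from CD8 T cells, with 398 and 229 CPM against 318 and 231 CPM.

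**Figure D2:**
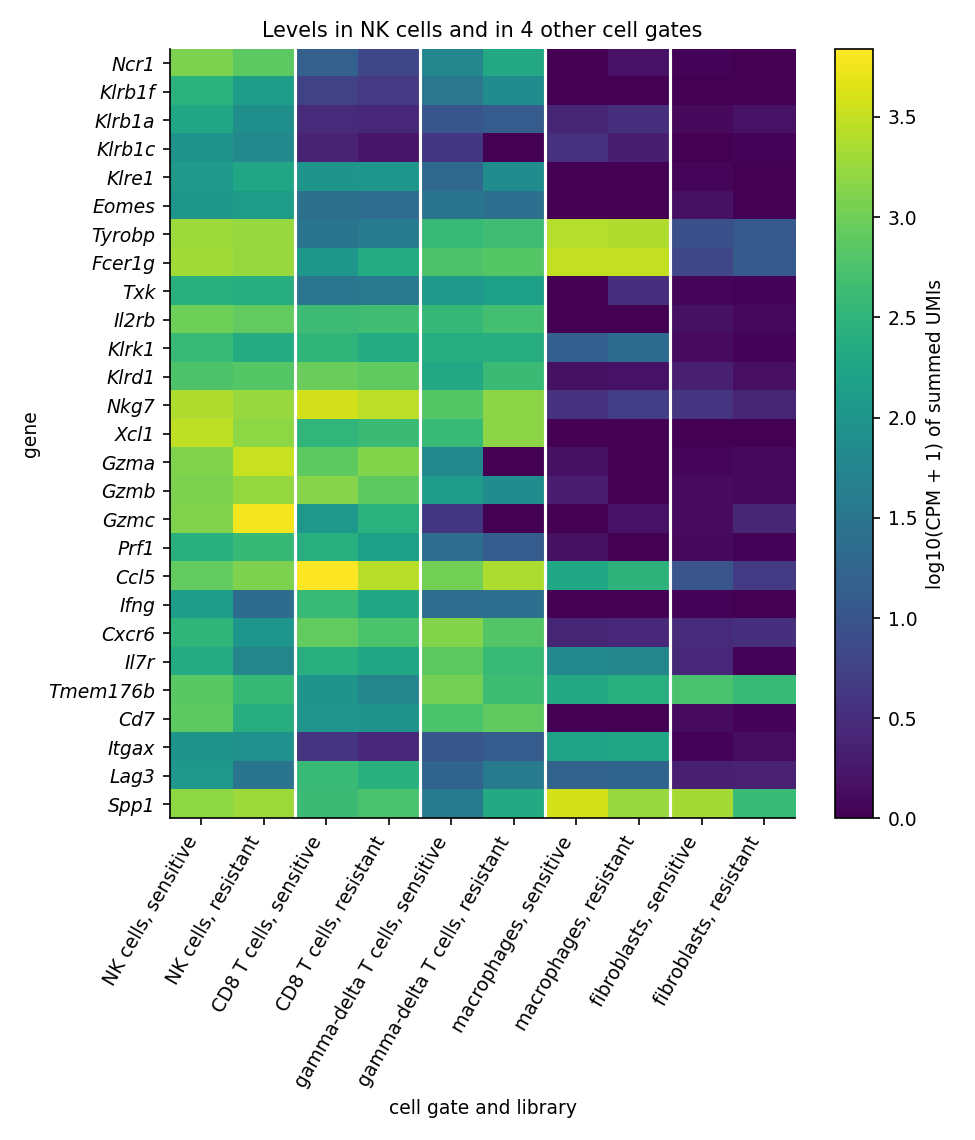
Level of 27 genes (rows) as log10(CPM + 1) of UMIs summed over the cells of each gate and library (columns, 2 per cell type). Ncr1, Klrb1f, Klrb1a and Klrb1c are brightest in the NK columns, Tyrobp and Fcer1g are also bright in macrophages, and Nkg7, Klrd1 and Ccl5 are at least as bright in CD8 T cells.

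NK cells were next set against the 1346 and 1598 CD8 T cells of the same libraries, which passed the same processing. Since the rule excluded Cd3e and Cd8 UMIs, this comparison is a description and carries no test. Of 3208 genes with enough UMIs, 126 (3.93%) were at least 2-fold higher in NK cells in both libraries and 125 (3.9%) at least 2-fold lower in both. Without the 32 cells with transcripts of other types, 87 of the 126 and 110 of the 125 still passed, and without the highest cell of each library 94 and 124.

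Among the leading genes was Klrb1a (NKR-P1A), at 191 and 79.2 CPM in NK cells and 1.97 and 1.71 CPM in CD8 T cells, or 96.7-fold and 46.4-fold. It lies at chr6:128609227-128623533 (GRCm38, GENCODE M21), in the same cluster as Klrb1c and Klrb1f, whose paralogous transcripts may share reads. Clnk, an adaptor of immunoreceptor signalling, was 64.7-fold and 45.1-fold higher, Itgax 34.4-fold and 50.3-fold, and the low-affinity Fc receptor Fcgr3 17.0-fold and 27.6-fold. All 4 genes were at least 20-fold higher in both libraries without the cells with transcripts of other types. The other leading genes did not. Cd74, H2-Aa and H2-Eb1 fell from between 19.7-fold and 60.9-fold higher to values between 0.362 and 1.03, and Alox5ap to 0.822 and 0.237. Wdfy4 and Plbd1, also among the 10 leading genes, were left with at most 1 UMI per library.

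Among effector genes, Xcl1, the chemokine that recruits cross-presenting dendritic cells, was 8.74-fold and 3.70-fold higher in NK than in CD8 T cells. Gzmc was 11.6-fold and 20.9-fold higher and Gzmd 3.62-fold and 8.32-fold, while Gzmb was 0.875-fold and 2.27-fold. Spp1 (osteopontin) was 3.79-fold and 3.45-fold higher, but the highest cell held 66.7% of its UMIs in the sensitive library, and without the highest cells it was 1.30-fold and 2.54-fold. After thinning, Spp1 was found in 12.6% and 26.3% of NK cells and 10.7% and 2.90% of fibroblasts. Gzmk went the other way, with 3 and 1 UMIs in NK cells and ratios of 0.0218 and 0.0233. Ccl5 was at 0.118-fold and 0.475-fold and Ifng at 0.350-fold and 0.116-fold. In the cytotoxic list 4 of 17 genes were higher in both libraries and 1 lower.

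Immune checkpoints were the group with the largest share of genes lower in NK cells, 6 of 10 tested. Pdcd1 (PD-1) gave 5 UMIs in 3 sensitive NK cells and 4 UMIs in 1 resistant NK cell, or 8.37 and 8.81 CPM against 416 and 391 CPM in CD8 T cells. Lag3 was at 0.271-fold and 0.104-fold, Ctla4 at 0.242-fold and 0.327-fold, Havcr2 (TIM-3) at 0.264-fold and 0.391-fold and Icos at 0.161-fold and 0.209-fold. Tnfrsf4 (OX40) had no UMI in 152 NK cells, against 108 and 52.4 CPM in CD8 T cells. Of the transcription factors, the exhaustion-associated gene Tox was at 0.235-fold and 0.125-fold, and Tcf7 (2.75-fold and 2.39-fold), Irf8 (3.55-fold and 4.39-fold) and Klf2 (2.89-fold and 2.08-fold) were higher in NK cells. The interferon response genes Ifit1, Ifit3, Ifi27l2a, Rtp4 and Ly6a, 5 of 20 tested, were lower in both libraries and none was higher. Without the highest cells Tcf7 went to 2.54 and 1.65 and Klf2 to 2.57 and 1.85. Without the cells with transcripts of other types Klf2 went to 3.32 and 1.73 and Rtp4 to 0.521 and 0.390, each past 2-fold in 1 library only. Medians over all genes tested were 1.055 and 1.024, over the checkpoints 0.267 and 0.359, and over the interferon list 0.679 and 0.689.

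Between the libraries, NK cells made up 2.67% [2.16 to 3.25] and 1.75% [1.33 to 2.27] of kept cells, a ratio of 1.52 [1.10 to 2.11]. Among kept cells with a UMI of Ptprc (CD45) the shares were 3.92% [3.15 to 4.81] and 2.58% [1.955 to 3.34]. The tumors pooled in a library cannot be told apart, and neither can tumor and depletion. NK cells had medians of 4791 and 4850 UMIs, and 2.53% and 4.53% mitochondrial UMIs, as in the libraries as a whole (2.39% and 4.93%). No NK cell shared its barcode with a barcode of the other library.

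Within NK cells, 2925 genes had at least 50 UMIs over both libraries. In the sensitive library 126 (4.31%) were at least 2-fold higher and 52 (1.78%) at least 2-fold lower than in the resistant library, and the median ratio of all genes was 1.08. The sums of 95 and 57 cells can be carried by a single cell. Ccl1 had 1499 and 164 UMIs, of which 1495 came from 1 sensitive cell with 39191 UMIs, and leaving out the highest cell of each library turned its ratio from 6.95 to 0.0288. The same cell held 144 of 154 Csf2 UMIs. A heat shock gene, Hspb1 (118 and 6 UMIs), and Ptgis (92 and 8) were likewise carried by 1 cell. Therefore the ratio without the highest cell and the ratio without cells with transcripts of other types were computed for every gene, and 69 of the 126 higher and 24 of the 52 lower genes passed 2-fold in both.

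The granule genes divided between the members of the granzyme family. Gzma (chr13:113093825-113100981) stood at 1292 and 3311 CPM (ratio 0.390 [0.357 to 0.426]), and was found in 18 of 95 and 18 of 57 cells. Gzmc (chr14:56231441-56234656) stood at 1295 and 5923 CPM (ratio 0.219 [0.202 to 0.237]) in 20 and 24 cells. Its neighbors Gzmd (109 and 759 CPM, 0.143 [0.108 to 0.187], 6 and 9 cells) and Gzme (33.5 and 319 CPM, 0.105 [0.0622 to 0.168], 5 and 7 cells) were lower in the sensitive library as well. These 4 of 16 granule genes were at least 2-fold lower, none was higher, and all 4 stayed below 0.5 without the highest cells and without the cells of other types. Gzma went to 0.580 as a mean over cells and to 0.741 when every cell was thinned to 1000 UMIs and the rule applied again (72 and 41 cells), which no longer passes 2-fold, and Gzmd went to 0.441 without the proliferating cells. Gzmd and Gzme are close paralogs of Gzmc in the same cluster, so reads may be split between them. Gzmf, another member of the cluster, went the other way without the cells of other types, at 1.67 (53 and 25 UMIs). Few cells carried the sums: the 5 highest cells held 81.3% and 73.2% of Gzmc UMIs and 81.7% and 82.5% of Gzma UMIs. For Gzmd the 5 highest cells held 98.5% and 95.65%.

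Gzmb (1205 and 1724 CPM, 0.699 [0.631 to 0.774]) and Prf1, perforin (273 and 370 CPM, 0.737 [0.591 to 0.920]), were at ratios below 1 over all cells but changed sides without the proliferating cells (1.29 and 1.24) and with the rule applied to thinned cells (1.42 and 1.66), so no direction is given for them. In CD8 T cells of the same libraries Gzmb and Prf1 had ratios of 1.81 [1.76 to 1.86] and 1.74 [1.62 to 1.86], and Gzma and Gzmc had 0.572 [0.554 to 0.591] and 0.393 [0.363 to 0.425]. The granule proteins Nkg7 (2412 and 1754 CPM, 1.375 [1.26 to 1.501]) and Ctsw, a cathepsin of cytotoxic cells (1256 and 742 CPM, 1.69 [1.49 to 1.93]), were above 1. The median over the granule list was 1.021, against 1.08 over all genes.

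Of the secreted factors, 3 of 11 were at least 2-fold higher in the sensitive library and none lower. Ifng, the cytokine that activates macrophages and raises MHC expression, stood at 134 and 22.01 CPM (ratio 6.08 [3.14 to 13.2]). It was found in 31 of 95 sensitive and 6 of 57 resistant cells, and the ratio was 11.3 without the highest cells and 5.12 without cells of other types. Ccl4, a chemokine that attracts lymphocytes and monocytes, stood at 1166 and 255 CPM (ratio 4.57 [3.75 to 5.61]), although the share of cells with a UMI was 23.2% and 28.1%. The 5 highest cells held 75.9% and 81.9% of its UMIs, and 1 resistant cell held 59.5%. The Ccl4 ratio ranged from 2.42 without cells with Cd3d or Cd3g to 14.56 with at least 3 markers, and was 0.958 [0.711 to 1.29] in sub-cluster 0, so its size depends on these choices. In CD8 T cells the Ccl4 ratio was on the same side of 1, at 2.24 [2.18 to 2.30]. The third, Csf2 (258 and 17.6 CPM), fell to 0.886 without the cells with transcripts of other types. Xcl1 stood at 2929 and 1514 CPM (1.93 [1.77 to 2.12]) in 79 and 40 cells, and in CD8 T cells its ratio was 0.820 [0.7795 to 0.863]. In NK cells the Xcl1 ratio was 1.14 as a mean over cells, 0.989 with the rule applied to thinned cells and 0.530 [0.420 to 0.670] in the largest sub-cluster, so its side of 1 depends on these choices. Ccl5 stood at 811 and 1255 CPM (0.647 [0.572 to 0.731]), whereas in CD8 T cells its ratio was 2.60 [2.56 to 2.64]. Tnf had 46 and 18 UMIs, a ratio of 1.94 [1.10 to 3.56].

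**Figure D3:**
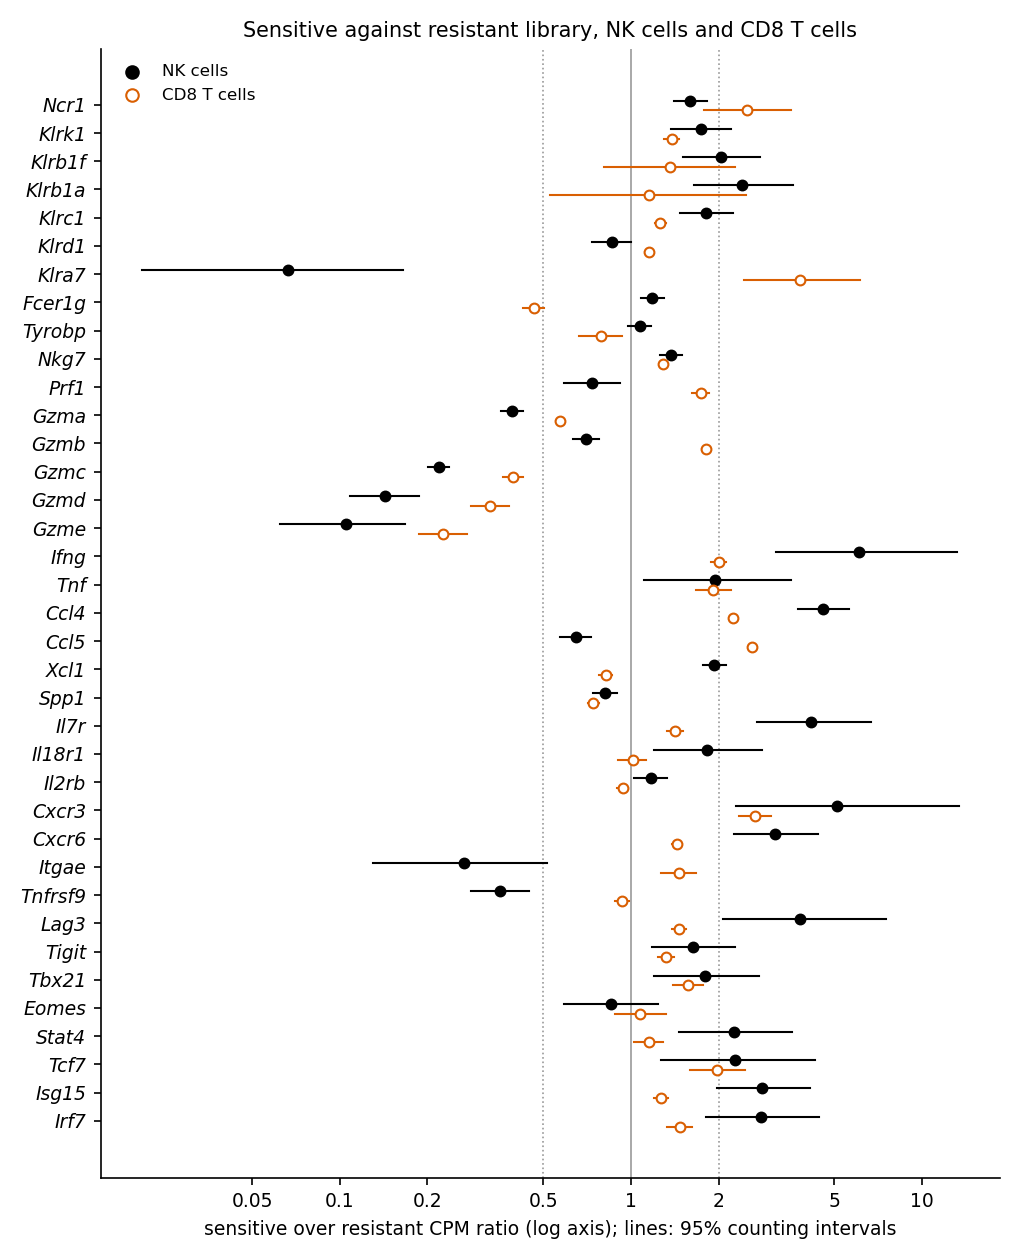
Ratio of CPM in the sensitive over the resistant library (x axis, log scale) for 37 genes in NK cells (filled) and CD8 T cells (open), with lines for 95% counting intervals and dotted lines at 0.5 and 2. Gzma, Gzmc, Gzmd, Gzme, Itgae, Tnfrsf9 and Klra7 lie below 0.5 in NK cells, and Ifng, Ccl4, Il7r, Cxcr3, Cxcr6 and Lag3 lie above 2.

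The chemokine receptors Cxcr6 and Cxcr3 and the cytokine receptor Il7r were found in many more sensitive than resistant NK cells. Cxcr6, the receptor for CXCL16 that marks tissue-resident lymphocytes, stood at 323 and 103 CPM (ratio 3.12 [2.26 to 4.39]), and was found in 62 of 95 and 20 of 57 cells. Cxcr3, the receptor for interferon-induced chemokines, stood at 78.6 and 15.4 CPM (5.10 [2.29 to 13.4]) in 33 and 6 cells. Il7r, the interleukin-7 receptor alpha chain, stood at 229 and 55.0 CPM (4.16 [2.70 to 6.66]) in 40 and 14 cells. All 3 stayed above 3 without the highest cells and without cells of other types. After thinning to 1000 UMIs per cell, Cxcr6 was found in 30.5% [21.5 to 40.8] and 8.77% [2.91 to 19.3], and Il7r in 22.1% [14.2 to 31.8] and 8.77% [2.91 to 19.3], while 0.132% and 0% (Cxcr6) and 0.264% and 0% (Il7r) of thinned fibroblasts had a UMI. These shares are over all 95 and 57 NK cells. When the rule was instead applied again to the thinned counts of all kept cells, which left 72 and 41 NK cells, the ratio of Cxcr6 was 4.21, but those of Il7r (1.14, from 16 and 8 UMIs) and Cxcr3 (1.898, from 10 and 3 UMIs) no longer passed 2-fold. CD8 T cells had smaller ratios for the same genes, 1.44 for Cxcr6, 2.66 for Cxcr3 and 1.42 for Il7r.

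Of 13 homing receptors, Cxcr6 and Cxcr3 were at least 2-fold higher. Of 10 cytokine receptors Il7r and Il2ra (90.3 and 44.0 CPM, 2.05 [1.21 to 3.62]) were higher and none lower, and Il2ra went to 1.94 without the cells with transcripts of other types. Il18r1 was at 1.82 [1.20 to 2.82], and Il2rb and Il2rg at 1.17 and 1.25.

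Il7r and Gzma marked different cells in both libraries. Il7r without Gzma was found in 39 of 95 (41.1%) sensitive and 14 of 57 (24.6%) resistant cells, Gzma without Il7r in 17 (17.9%) and 18 (31.6%), and both genes together in 1 and 0 cells. The remaining 38 and 25 cells had neither.

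Genes of ILC1 and tissue residency did not move in 1 direction. Besides Cxcr6 and Il7r, Tmem176a (407 and 209 CPM, 1.94 [1.53 to 2.49]) and Tmem176b (728 and 376 CPM, 1.93 [1.62 to 2.32]) were above 1. Tmem176b ranged from 1.12 with the rule applied to thinned cells and 1.545 with at least 3 markers to 2.26 without the cells of other types, so whether it passes 2-fold depends on these choices. After thinning it was found in 42.1% and 28.1% of NK cells and in 36.4% and 23.7% of fibroblasts, whose part in the difference was not tested. Itga1 was at 0.833 [0.562 to 1.24]. Itgae (CD103, the integrin that binds E-cadherin) had 13 and 37 UMIs in 6 and 9 cells, a ratio of 0.267 [0.130 to 0.514], of which 2 and 8 UMIs were left without the cells with transcripts of other types, and Tnfrsf9 (4-1BB, induced on activated lymphocytes) stood at 192 and 541 CPM (ratio 0.355 [0.282 to 0.445]), in 26 and 26 cells. The list thus had 2 of 13 genes higher and 2 lower, with a median of 1.08.

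Among the receptors that start or hold back killing, the changes were mostly under 2-fold. Ncr1, Klrb1f and the other genes of the rule are given as a description only. Ncr1 stood at 1183 and 740 CPM (1.599), Klrb1f at 278 and 136 CPM (2.04) and Klre1 at 115 and 185 CPM (0.624). Outside the rule, Klrb1a stood at 191 and 79.2 CPM (ratio 2.41 [1.64 to 3.60]), in 48 and 19 cells. Klrk1 stood at 398 and 229 CPM (1.74 [1.38 to 2.21]), Cd226 (DNAM-1) at 209 and 125 CPM (1.67 [1.21 to 2.32]) and the inhibitory receptor Klrc1 (NKG2A) at 519 and 286 CPM (1.81 [1.47 to 2.24]). Klrd1 (CD94), the partner of Klrc1, stood at 582 and 678 CPM (0.859 [0.735 to 1.004]). Fcgr3 was at 0.447 [0.244 to 0.799] with 20 and 34 UMIs and at 0.744 without the cells of other types. Of the 10 activating receptors tested outside the rule, Klrb1a was higher and Fcgr3 lower, with a median of 1.44. Klrb1a was between 1.78 and 1.99 with a looser or no mitochondrial limit, with the rule applied to thinned cells and as a mean over cells.

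Klra7 (Ly49G), an inhibitory receptor at chr6:130218605-130233322, had the lowest ratio of all genes that could be named. It had 5 UMIs in 3 sensitive and 57 UMIs in 10 resistant NK cells, or 8.37 and 125 CPM (ratio 0.0667 [0.0209 to 0.165]). The 5 highest resistant cells held 84.2% of its UMIs there. With the rule applied to thinned cells 0 and 3 UMIs were left, too few for a ratio. In CD8 T cells the order was the opposite, 76 and 28 UMIs and a ratio of 3.81 [2.44 to 6.10]. Gamma-delta T cells had the same order as NK cells, at 22.6 and 244 CPM of Klra7, from 7 UMIs in 2 of 79 and 20 UMIs in 2 of 19 cells, 17 of them in 1 cell. Klra3 and Klra5, of the same family, had ratios of 0.760 [0.515 to 1.12] and 0.795 [0.559 to 1.13]. Ly49 genes are expressed by subsets of cells and are near-identical in sequence, so the split of reads among them is uncertain. Of the 6 inhibitory receptors tested outside the rule Klra7 alone passed 2-fold.

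Among transcription factors outside the rule 10 of 14 ratios, and among interferon genes 14 of 17, were above 1, as were 1822 of all 2925. Tbx21 (T-bet), which drives Ifng in NK cells, stood at 139 and 77.04 CPM (1.80 [1.20 to 2.76]), while Eomes, a gene of the rule, stood at 107 and 125 CPM. Stat4, which relays interleukin-12 signals, stood at 144 and 63.8 CPM (2.25 [1.46 to 3.56]) in 52 and 17 cells. Nr4a1, induced by receptor signalling, stood at 268 and 85.9 CPM (3.12 [2.19 to 4.55]), and Tcf7 at 80.3 and 35.2 CPM (2.28 [1.27 to 4.30]). Of these 14 factors Stat4, Nr4a1 and Tcf7 were at least 2-fold higher, but Nr4a1 was 1.898 with the rule applied to thinned cells (20 and 6 UMIs), and Tcf7 was 1.92 without the cells of other types, 1.91 with at least 3 markers, 1.89 with no mitochondrial limit and 1.80 as a mean over cells. In thinned cells Nr4a1 was found in 10.5% and 8.77% of NK cells and 13.2% and 7.97% of fibroblasts, so these shares are not read as expression and the part of fibroblast RNA in its ratio was not tested. Of 17 interferon response genes 5 were higher and none lower, with a median of 1.62. Irf7 stood at 166 and 59.4 CPM (2.79 [1.81 to 4.44]), Isg15 at 243 and 85.9 CPM (2.83 [1.97 to 4.14]), and Gbp2 at 109 and 24.2 CPM (4.49 [2.35 to 9.44]). Ly6c2 (2.01) and Socs3 (2.07) were the others, and all 5 passed 2-fold without the highest cells and without the cells of other types. Without the cells of other types Gbp2 was at 2.36 and Socs3 at 6.89. Under other alternatives calls were lost. Without the proliferating cells Gbp2 went to 1.48, Isg15 to 1.86 and Irf7 to 1.65, Irf7 was also 1.65 as a mean over cells and 0.651 with the rule applied to thinned cells (8 and 7 UMIs), and Ly6c2 was between 1.61 and 1.66 without Tyrobp in the rule, with at least 3 markers, or with a looser or no mitochondrial limit. The highest cell held 33.8% of the Isg15 UMIs of the sensitive library, and Isg15 was found in 22.1% of sensitive and 24.6% of resistant cells. In thinned fibroblasts 14.5% and 23.6% had an Isg15 UMI, above the 9.47% and 7.02% of thinned NK cells, so the share of cells with Isg15 is not read as expression. Irf7, in 7.37% and 14.04% of thinned NK cells and 7.52% and 11.6% of thinned fibroblasts, is not read as expression from its shares either.

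Of the 6 checkpoints tested, Lag3 was higher, with 109 and 28.6 CPM (3.80 [2.08 to 7.52]) in 29 and 10 cells, and Tnfrsf9 was the one lower. Tigit, an inhibitory receptor for CD155, stood at 201 and 123 CPM (1.63 [1.18 to 2.28]). The share of proliferating cells had overlapping intervals. By UMIs of at least 2 of Mki67, Top2a, Birc5, Stmn1 and Cdk1, 11 of 95 (11.6% [5.92 to 19.8]) sensitive and 8 of 57 (14.04% [6.26 to 25.8]) resistant NK cells were proliferating. Cdk1, Cdc20, Cenpf and Ube2c, 4 of 24 cell cycle genes, were at least 2-fold higher in the sensitive library, but they were found in at most 10 cells and none passed 2-fold without the cells of other types, when the median of the list was 0.544. The mitochondrial transcripts were lower in the sensitive library, with a median ratio of 0.533 over 12 genes in NK cells and 0.458 in CD8 T cells.

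Some of the 10 most changed genes in each direction were outside the lists. Prnp, the prion protein, stood at 122 and 17.6 CPM (6.94 [3.34 to 16.7]) in 36 and 7 cells, and Sh3kbp1, an adaptor of receptor internalisation, at 75.3 and 17.6 CPM (4.27 [1.99 to 10.5]) in 33 and 7 cells. Serpinb1a, a protease inhibitor, had 56 and 10 UMIs in 13 and 3 cells, of which 16 and 1 UMIs were left without the cells with transcripts of other types. Igfbp4 had 44 and 6 UMIs, in 12 and 4 cells, while fibroblasts of the same libraries stood at 3785 and 2921 CPM of it, whose part in the difference was not tested. On the lower side AA467197 had 13 and 63 UMIs in 8 and 13 cells (0.157 [0.0792 to 0.288]). Ifi30 stood at 93.7 and 313 CPM (0.300 [0.216 to 0.411]), but 6 of 56 and 16 of 142 UMIs were left without the cells with transcripts of other types, and the ratio was 0.607 without Tyrobp in the rule and 0.643 with at least 3 markers. Cst3 (2675 and 8758 CPM), Spi1 (9 and 47 UMIs) and Gsn (31 and 84 UMIs), known for dendritic or stromal cells, lost most of their UMIs without the cells with transcripts of other types. The ratio of Cst3 then went from 0.305 to 1.29 (138 and 84 UMIs), while Spi1 kept 0 and 2 and Gsn 0 and 3 UMIs, too few for a ratio. The depletion antigens H2-Aa, H2-Ab1 and H2-Eb1, on which the definition of those cells partly rests, went from ratios of 0.390, 0.362 and 0.428 to 1.91 (17 and 7 UMIs), 0.985 (20 and 16) and 1.44 (11 and 6). Outside the named genes, Cd7, an early lymphoid antigen chosen after its values were seen, stood at 754 and 249 CPM (3.03 [2.46 to 3.76]) in 77 and 30 cells.

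**Figure D4:**
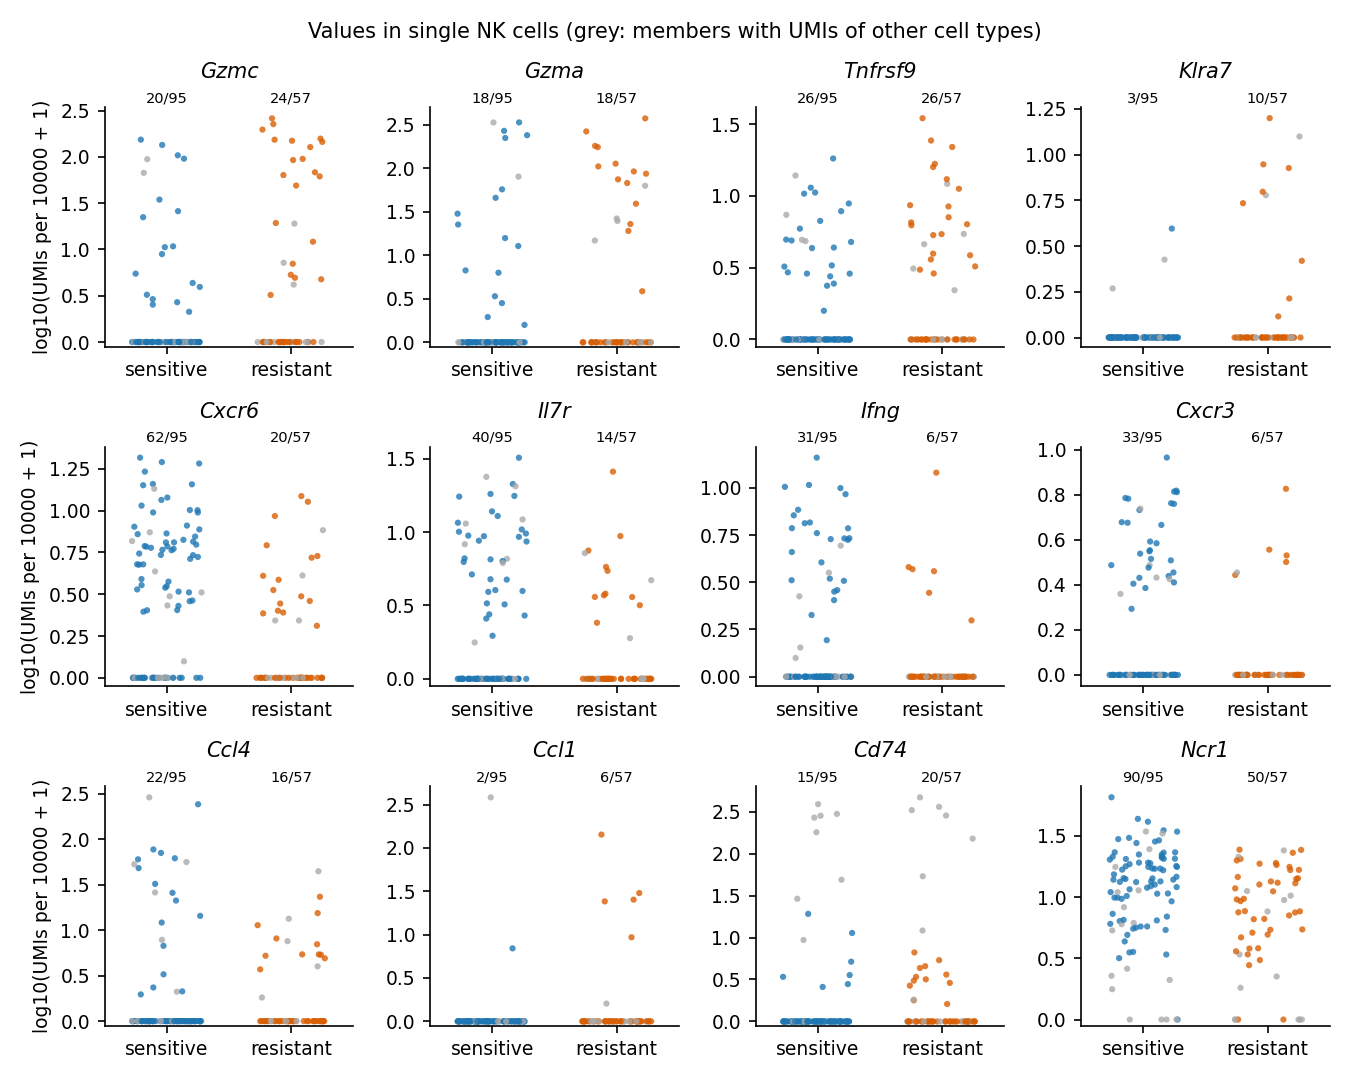
UMIs per 10000 of 12 genes in each NK cell (y axis, log10 of the value plus 1) by library, with the number of cells with a UMI above each column and cells with transcripts of other types in grey. Cxcr6, Il7r, Ifng and Cxcr3 are spread over many sensitive cells, Gzmc and Klra7 over a larger share of resistant cells, and the highest Ccl1 and Cd74 values belong to grey cells.

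Clustering the 152 NK cells gave 4 sub-clusters, called here by number and leading genes, with no test between them since the same genes made them. Sub-cluster 1 (34 sensitive and 20 resistant cells) was led by Ccl5, Ccl4 and Gzma, with Klf2 and Klrb1c among its 10 leading genes. Ccl5 was found in 72.2% of its cells and 26.5% of the others, and Gzma in 44.4% and 12.2%. Sub-cluster 3 (24 and 19 cells) was led by Spp1, Gzmb, Klra5 and Tnfrsf9. Spp1 was found in 69.8% of its cells and 16.5% of the others, and Tnfrsf9 in 67.4% and 21.1%. Sub-cluster 2 (8 and 6 cells) was led by the mitotic genes Ube2c, Birc5 and Pclaf, and had a median of 14630 UMIs per cell against 3655 to 6730 in the other sub-clusters. Of its 14 cells, 6 had transcripts of other types, against 12 of 41 in sub-cluster 0, 9 of 54 in sub-cluster 1 and 5 of 43 in sub-cluster 3. Sub-cluster 0 (29 and 12 cells) was led by Cst3 and MHC class II genes, and 11 of its 41 cells were those with at least 10 MHC class II UMIs. Its Il7r share was the highest, 18 of 29 and 6 of 12 cells.

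The sub-clusters took shares of the 2 libraries that overlapped in their intervals. Sub-cluster 0 held 30.5% [21.5 to 40.8] of sensitive and 21.1% [11.4 to 33.9] of resistant NK cells, sub-cluster 1 35.8% [26.2 to 46.3] and 35.1% [22.9 to 48.9], sub-cluster 2 8.42% [3.71 to 15.9] and 10.5% [3.96 to 21.5], and sub-cluster 3 25.3% [16.9 to 35.2] and 33.3% [21.4 to 47.1]. Differences between libraries inside the sub-clusters varied from one to another. In sub-cluster 3, Gzmc stood at 2565 and 7931 CPM (0.323 [0.288 to 0.363]) and Cxcr6 at 448 and 121 CPM (3.71 [2.22 to 6.45]). In sub-cluster 1, Cxcr6 stood at 395 and 119 CPM (3.32 [1.58 to 8.04]) and Il7r at 293 and 104 CPM (2.81 [1.25 to 7.40]). The Cxcr6 ratio was 5.62 [2.54 to 14.67] in sub-cluster 0, but 0.952 [0.423 to 2.21] in sub-cluster 2, with 16 and 12 UMIs. Gzma differed by sub-cluster, with a ratio of 1.31 [1.14 to 1.52] in sub-cluster 1 and 0.0461 [0.0337 to 0.0617] in sub-cluster 3, where 2 of 24 sensitive and 5 of 19 resistant cells had a UMI. Gzmd differed too, at 3.20 [1.12 to 12.6] in sub-cluster 1, with 28 and 4 UMIs, and 0.1835 [0.121 to 0.269] in sub-cluster 3.

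**Figure D5:**
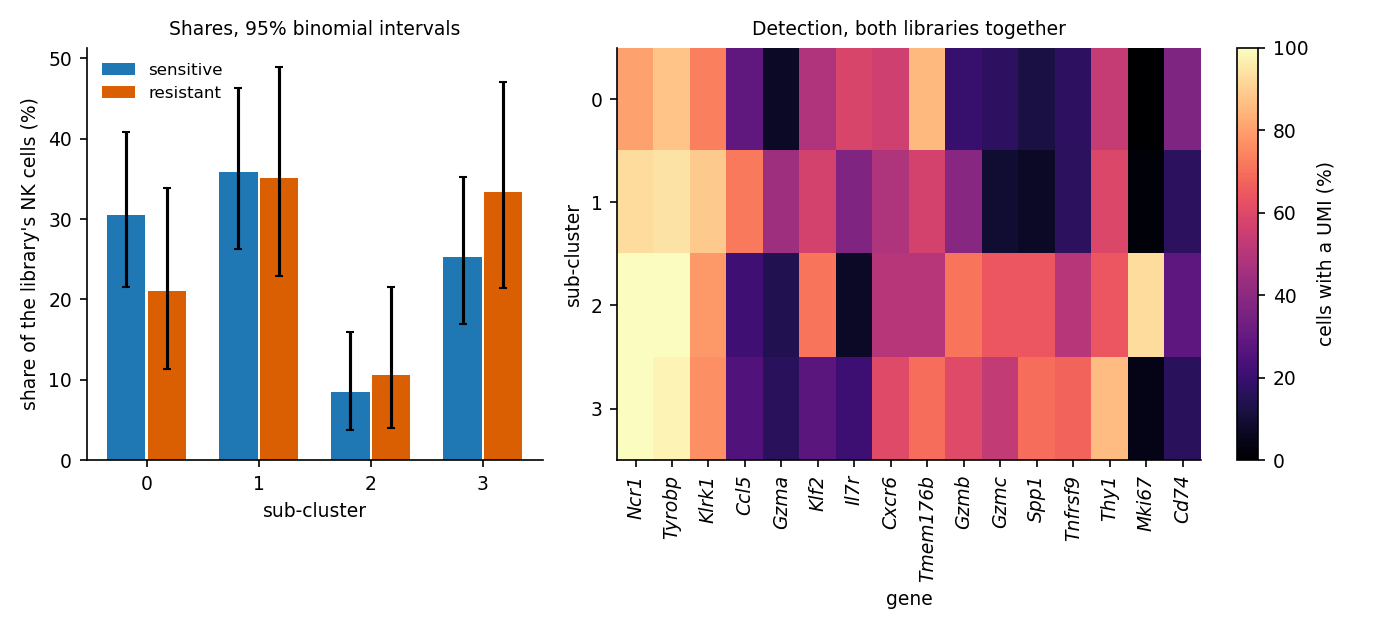
Left, share of each library's NK cells (y axis, percent) in the 4 sub-clusters with 95% binomial intervals. Right, share of cells with a UMI (colour, percent) of 16 genes in each sub-cluster, both libraries together, where Ccl5 and Gzma mark sub-cluster 1, Mki67 sub-cluster 2, Spp1 and Tnfrsf9 sub-cluster 3, and Il7r and Cd74 are highest in sub-cluster 0.

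Cells at the edge of the rule were examined as a description. Among NK cells with exactly 2 of the 6 genes (20 sensitive and 10 resistant) Nkg7 was found in 60% and 40%, and among those with 3 or more (75 and 47) in 97.3% and 100%. Just outside, 179 and 216 cells had 1 of the 6 genes and passed the exclusions, and Nkg7 was found in 3.35% and 1.39% of them. A further 25 sensitive and 17 resistant cells had 2 or more of the genes and passed the other exclusions but had Cd3e UMIs. Of these, 22 and 13 had more than 1 Cd3e UMI, and 21 and 13 of those also had Cd3d or Cd3g.

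The same rule was applied to the whole-tumor libraries, which were not depleted, were processed with another feature list, had no mitochondrial UMIs on which the limit could act, and are not set against the T cell libraries. It found 9 of 354 kept cells (2.54% [1.17 to 4.77]) in the control, 3 of 168 (1.79% [0.370 to 5.13]) in the sensitive and 5 of 248 (2.02% [0.658 to 4.64]) in the resistant library, and the intervals overlapped. Nkg7 was found in 9 of 9, 3 of 3 and 4 of 5 of them, Klrd1 in 7, 3 and 4, and Txk in 6, 2 and 3. Gzma was found in 6, 3 and 3 cells and Il7r in none of the 17. Itga2 was found in 1, 0 and 1 cells. The neutrophil gene S100a8 was found in 7, 3 and 4 of these cells, and its part in the other values was not tested. In the resistant library 2 of 5 cells held 663 Gzmc UMIs, against 30 UMIs in 1 of 9 control cells and 0 in the 3 sensitive cells. Depth was unequal, with a median per NK cell of 10309 UMIs (resistant), 2143 (control) and 3958 (sensitive). These Gzmc counts were not scaled for depth, so no difference is read from them.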

How the data were processed

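Droplet single-cell RNA sequencing (10x Genomics 3' chemistry) gave 1 library for each of 5 groups. The authors deposited raw UMI counts for every gene in every barcode, not normalized, aligned to mm10 with Cell Ranger 6.0.0 (T cell libraries, 32285 features) or 3.0.1 (whole-tumor libraries, 54987 features), per the file headers and the submitters' processing notes. The T cell libraries held 3949 and 6116 barcodes with 31690845 and 35908799 UMIs (sensitive, resistant), of which the NK cells gave 597725 and 454307 UMIs.

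NK cells were found by the rule given in the text. The members, marker lists and gene lists were chosen with earlier results of these data known. CD8 T cells had Cd3e and Cd8a or Cd8b1 UMIs, none of Cd4, C1qa or Csf1r, and fewer than 3 of Lyz2. Gamma-delta T cells had Cd3e and Trdc and no Cd8 or Cd4 UMIs, macrophages had C1qa and Csf1r and no Cd3e, and fibroblasts had at least 3 Col1a1 UMIs and Col3a1 with no Ptprc or Cd3e. UMIs were summed per library and divided by the sum of the same cells (CPM). Intervals (95%) were exact conditional binomial for a ratio of CPM, Clopper-Pearson for a share and by the delta method on the log scale for the share ratio, and cover counting error only. A 0 was read as 3 counts in a ratio, and no ratio of a named gene was given where an alternative left at most 3 UMIs in both libraries. With 1 library per group there was no test, and a gene was called at 2-fold among genes with at least 50 UMIs over the NK cells, or, against CD8 T cells, with at least 50 UMIs observed or expected at the CD8 level (this reading was fixed after the files were seen). Named genes were those of the lists plus the 10 highest and 10 lowest ratios of each comparison, for genes seen in at least 10% of NK cells of a library and outside mitochondrial, Gm, Rik and receptor segment genes. Shares for depth were counted over the NK cells of the main rule after thinning to 1000 UMIs, with fibroblasts as background, whereas the thinned alternative applied the rule again to thinned counts. Sub-clusters used 1000 variable genes, 15 components, 15 neighbors and Leiden resolution 0.5 (scanpy 1.11.5). Leading genes of a sub-cluster were seen in at least 25% of its cells, by fold with 50 CPM added. No doublets were removed. The alternative that removes the highest Scrublet scores took out 0 and 1 NK cells. Gene positions are from GENCODE M21 (GRCm38), in which 32158 of 32285 identifiers were found. Scripts were tested on simulated counts. Some listed genes are not reported here.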

Additional observations from a re-analysis of the deposited data

Results flagged for a closer look

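Ratios of the sensitive over the resistant library were compared between NK cells and CD8 T cells, and listed genes were singled out where NK cells were past 2-fold, also without the highest cell of each library, and CD8 T cells lay on the other side of 1, both intervals excluding 1. The differences between the cell types were not tested. Klra7 had a ratio of 0.0667 in NK cells and 3.81 in CD8 T cells, while gamma-delta T cells had 7 and 20 UMIs (22.6 and 244 CPM), the order of NK cells, and the 5 highest resistant NK cells held 84.2% of its UMIs. With the rule applied to cells thinned to 1000 UMIs, 0 and 3 Klra7 UMIs were left, too few for a ratio. Itgae had 0.267 and 1.46, and 2 of its 13 and 8 of its 37 NK UMIs were left without the cells with transcripts of other types. The cell cycle genes Cdk1, Cenpf and Ube2c had 2.99, 2.56 and 2.67 in NK cells and 0.842, 0.687 and 0.734 in CD8 T cells, and their NK ratios were 1.41, 1.12 and 1.03 without the cells with transcripts of other types.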

How the results depend on the processing

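No paired analysis was possible because each group held 1 library. Alternatives without the cells with transcripts of other types or without the highest cell of each gene were chosen after seeing the data. The share ratio of 1.52 stayed within its interval under every alternative run. Against 126 genes higher and 52 lower in sensitive NK cells, the counts were 454 and 181 at a floor of 20 UMIs, 42 and 28 at 100 UMIs, 443 and 172 at 1.5-fold, 34 and 19 at 3-fold, 8 and 10 with the rule applied to cells thinned to 1000 UMIs (72 and 41 NK cells, 290 genes tested), and 77 and 33 without cells with transcripts of other types. The lower genes numbered 29 without Tyrobp in the rule and 33 with at least 3 of 6 markers. Against CD8 T cells, 82 genes were higher in both libraries with at least 3 of 6 markers, 13 after thinning (12 lower) and 72 without cells with transcripts of other types. Of ratios past 2-fold, those that changed sides of 1 were Ccl1 (0.0203 without cells with Cd3d or Cd3g, 0.427 thinned, 0.0193 without cells with transcripts of other types, 0.0277 without proliferating cells, 0.0288 without the highest cells), Csf2 (0.937 without cells with Cd3d or Cd3g, 0.886 without cells of other types, 0.833 without proliferating cells) and Ptgis (0.689 without cells of other types, 0.212 without proliferating cells, 0.918 without the highest cells). Cst3 went to 1.29 without cells of other types and to 5.07 thinned, and Irf7 to 0.651 thinned. The thinned value of Il2ra, 0.759, comes from reading 0 as 3 counts (4 and 0 UMIs) and gives no direction. Thinning left at most 3 UMIs in both libraries, and so no ratio, for Ptgis, Gbp2, Sh3kbp1, Serpinb1a, Klra7, Gzme, Spi1, AA467197, Itgae, Gsn, Csf2, Lta and Fcgr3, as did leaving out cells of other types for Spi1 and Gsn. Of ratios under 2-fold, Gzmb (1.42 thinned, 1.29 without proliferating cells), Prf1 (1.66 and 1.24), Spp1 (1.52 without proliferating cells), Fos (1.28 without cells of other types, 1.01 without doublets), Eomes (1.25 without proliferating cells, 1.004 as a mean over cells), Xcl1 (0.989 thinned), Il2rb (0.907 thinned) and Tyrobp (0.922 thinned, 0.988 scaled by the median ratio) changed sides. Past 2-fold under every alternative were Cxcr6, Ifng, Ccl4, Lag3, Stat4, Prnp, Igfbp4, Cd7, Gzmc, Gzmd and Tnfrsf9 among the 58 genes. The sub-clusters are not among these alternatives, and inside a sub-cluster several of these genes did not pass 2-fold on the same side. Gzmd was at 3.20 and Ifng at 1.66 in sub-cluster 1, Ccl4 at 0.958 in sub-cluster 0 and Cxcr6 at 0.952 in sub-cluster 2. For genes carried by few cells the cause is the cells left out, and for the others the cause was not tested. Of 681 alternative ratios over 58 genes, 552 stayed within the main interval. Depth limits the calls to the 2925 genes with at least 50 UMIs over 152 cells.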
